A study of Danio rerio with 3 samples.

Results

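The genes described here encode the acid hydrolases of the lysosome, its main membrane proteins, the proton pump that acidifies it, and the lysosomal helper protein prosaposin. Members were taken from a RefSeq gene table as every zebrafish symbol that starts with atp6v, lamp1, lamp2, ppt1 or ppt2, together with named lysosomal genes, and cathepsins were left out. This gave 56 of the 41229 symbols in the table. They comprised 22 pump genes, 26 hydrolases, 6 membrane protein genes, psap and the regulator gene tfeb. A further listed name, npc2, is not a symbol in that table.

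RNA was measured in whole zebrafish (Danio rerio) embryos at 22 hours post fertilization (hpf). Morphant embryos had received 2 to 3 nl of MO-grnA at the 1-cell stage, a morpholino (an antisense oligomer) against granulin A, and the wild-type embryos had received no treatment. Each of 3 biological replicates set a pool of 200 morphant embryos against a pool of 200 wild-type embryos on one Agilent array with 2 colours, and the dyes were swapped in replicate 3. Because the controls received no injection, effects of injecting and of the morpholino itself cannot be told apart. The morpholino's sequence and the fish strain are not given in the sources used here.

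Lysosomes break down proteins, lipids and glycans with hydrolases that work at acid pH. The vacuolar ATPase, or V-ATPase, pumps protons into the lumen. Its cytosolic V1 sector splits ATP and its membrane V0 sector carries the protons. Progranulin, the mammalian relative of the granulin precursors, is carried to lysosomes, partly in complex with prosaposin, and is cut there into granulins. In humans, loss of both progranulin copies causes neuronal ceroid lipofuscinosis, a lysosomal storage disease that mutations in PPT1 and TPP1 also cause.

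Of the 56 members, 39 had at least one probe whose accession matched, 57 probes in all. The other 17 had no matched probe and are not analysed here. They are npc1, mcoln1a, tfeb, smpd1, gaa, gusb, idua, arsb, lamp1b, ppt2a.2, ppt2a.3 and the pump genes atp6v0a2a, atp6v1ab, atp6v1c2, atp6v1d, atp6v1e1a and atp6v1g1. Both probes of arsa, which encodes arylsulfatase A, were well above background on only 1 of 3 arrays in morphants and on 0 in wild type. They were therefore not tested. Another 5 members (atp6v1b2, atp6v0e1, glb1, ids and tpp1) had their only spot marked as uneven or outlying on replicate 1. This left 33 tested members with 46 tested probes, 14 of the pump, 15 hydrolases, 3 membrane proteins and psap. All but ppt2a.1 were well above background in both channels of all 3 arrays. Values are log2 ratios of morphant over wild type, so that 1 is a doubling and -1 a halving. They are given per array or as the fitted ratio with its standard error (SE, n = 3 arrays). "Rose" and "fell" mean an adjusted p under 0.05 in limma over all 25066 tested probes, and the brightest tested probe stands for a gene.

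In the morphant channel 28635 to 31551 spots per array stood well above background, and in the wild-type channel 28822 to 31010. Replicate 1 lay on slide 1 and replicates 2 and 3 on slide 2. On replicate 1, 7.49% of spots were marked, against 0.915% and 0.909% on the others. Each array carries both groups, so slides do not run along the groups. The ratios of the arrays correlated across probes (r = 0.837, 0.818 and 0.851), and probes are not independent replicates. The grna probe gave 0.19, 0.34 and 0.39 on replicates 1, 2 and 3 (fitted 0.31, SE 0.08, limma adjusted p = 0.0227). For grnb the ratios were 0.97, 0.35 and 0.43 (fitted 0.58, SE 0.13, adjusted p = 0.00867). Both rose, where 19.3% of all named genes did, and a probe cannot check a morpholino that need not lower its transcript.

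The values of the tested members differed by role, and the members were chosen with earlier results of these data known. Among the 33 tested members 5 rose and 11 fell, and 17 did not pass. Across all 9227 named genes tested, 41.3% passed, 19.3% higher and 22.0% lower in morphants. Of the members 48.5% passed, 15.2% higher and 33.3% lower, and their median log2 ratio was -0.02. Among these members, most of the large changes were in hydrolases. Of the hydrolases, 7 of 15 fell and 2 rose, with ratios from -2.48 to 0.70. The 7 falls include ppt2a.1, which had to be lower by the filter, and plbd2, whose probes disagree in direction. The pump moved little, with 4 falls and 1 rise among 14 genes and a range of -0.58 to 0.48. Of the 3 membrane protein genes, 1 rose and 2 did not pass. In all 60.0% of hydrolases passed, 35.7% of pump genes, and 33.3% of membrane protein genes. A call with a ratio of at least 0.5 in size was made for 8 of 15 hydrolases, 1 of 14 pump genes and psap, against 17.4% of all named genes (7.34% higher and 10.0% lower). The median size of the ratio, sign aside, was 0.66 for hydrolases, 0.14 for the pump and 0.22 for all named genes. The hydrolase medians on replicates 1, 2 and 3 were -0.19, -0.29 and -0.21, each below the pump medians of 0.02, -0.05 and 0.03. Both ppt2a.1 and plbd2 also count in the 60.0%, the 8 of 15 and the hydrolase medians, and medians without them were not computed. With a filter that asks for both channels, which leaves out ppt2a.1, 8 of 14 hydrolases passed, against 41.2% of 8908 named genes. These counts and medians describe the members that could be measured, and the difference between roles was not tested. Hydrolase probes were also dimmer, with a median log2 intensity of 10.1 against 13.6 for the pump. The background correction pulls ratios of dim probes toward 0. Other effects of dimness were not examined, and the roles were not compared at matched intensity.

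**Figure D1:**
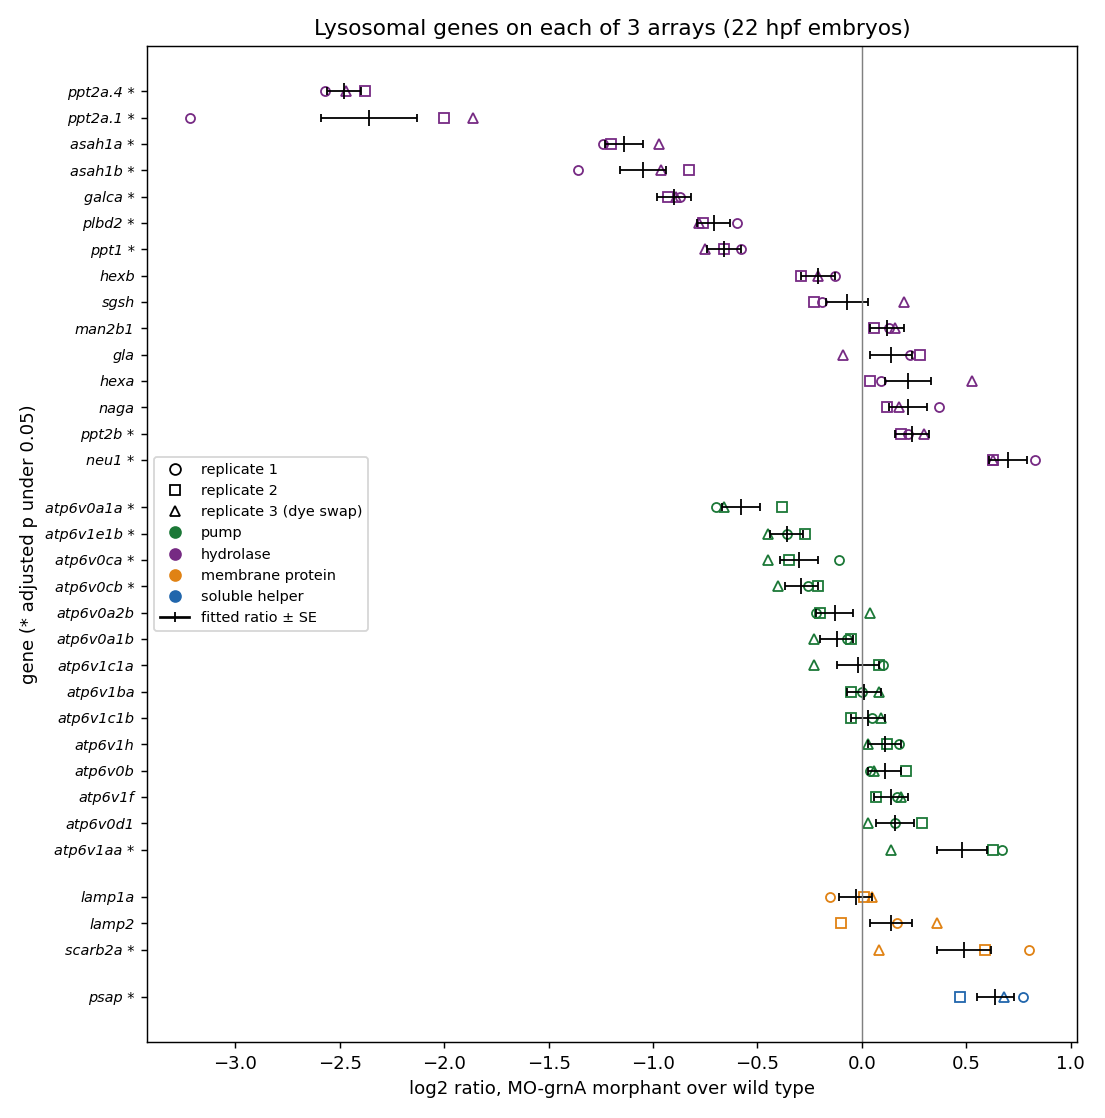
Log2 ratio of morphant over wild type (x axis) for each of the 33 tested members (y axis), with 1 open symbol per array, a tick at the fitted ratio and bars for its SE. Hydrolases spread from -2.48 to 0.70, while the 14 pump genes lie between -0.58 and 0.48.

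Among enzymes that remove acyl groups, 2 genes of the ppt2a family had the lowest ratios, although ppt2a.1 had to be lower by the filter. Palmitoyl-protein thioesterases cleave fatty acyl groups from proteins or from coenzyme A in the lysosome. The brightest ppt2a.4 probe had median spot intensities of 1544, 372 and 262 in morphants and 3645, 1254 and 2597 in wild type on replicates 1, 2 and 3. Its ratios were -2.57, -2.38 and -2.47, close together on all 3 arrays. The fitted ratio was -2.48 (SE 0.08, adjusted p = 2.26e-06), which is 5.56-fold lower in morphants and the 12th lowest of all 9227 named genes. The second ppt2a.4 probe fell too but less, with -1.09, -0.75 and -0.81 (fitted -0.88, SE 0.09, adjusted p = 0.00033). The size of the ppt2a.4 change therefore depends on the probe, while the direction was the same on every array with both.

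The ppt2a.1 probe was dimmer. Its morphant intensities were 77.5, 60 and 57, not well above background on any array, against 428.5, 206 and 351.5 in wild type. In morphants its signal was at least 4.54-fold lower, a bound with no test of its own. For that bound the mean wild-type signal was divided by the morphant signal of the probe or, where higher, the lowest signal well above background, and since 2 arrays carry one dye orientation and 1 the other, dye bias can enter it. Measured ratios were -3.22, -2.00 and -1.86, and the fitted ratio was -2.36 (SE 0.23, limma adjusted p = 0.000206). Replicate 1 stood apart here. Per array the log2 bound was 2.68, 2.00 and 1.86, so the floor acted on replicate 1 only. On replicates 2 and 3 the bound is the measured ratio itself, with a morphant signal not well above background. The gene passed the filter through the wild-type channel alone and so had to be lower, and its p is no evidence for the direction. With a filter that asks for both channels, 10 members in place of 11 fell and 5 rose, where 41.2% of 8908 named genes passed (19.2% higher and 22.0% lower). If the copies in this gene cluster are close in sequence, they may share signal between probes, which could not be checked.

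The other thioesterase genes changed less. The gene ppt1, whose human counterpart is mutated in an infantile form of ceroid lipofuscinosis, gave -0.58, -0.66 and -0.75. It was lower on all 3 arrays, within a narrow range (fitted -0.66, SE 0.08, 1.58-fold lower, adjusted p = 0.000649). By contrast ppt2b, the other relative of mammalian PPT2, gave 0.22, 0.19 and 0.30. Its rise was small and at the edge of the threshold (fitted 0.24, adjusted p = 0.0495), and the call ended in 9 of the 11 alternative settings, with any replicate left out among them (adjusted p from 0.0814 to 0.162).

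The phospholipase B-like gene plbd2 gave opposite answers from its probes. The brightest probe read -0.60, -0.76 and -0.78 (fitted -0.71, SE 0.08, adjusted p = 0.000497). A dimmer probe read -1.02, -1.76 and -1.65 (fitted -1.47, SE 0.14). The remaining one, with a mean log2 intensity of 10.6 against 11.0 for the brightest, read 0.73, 0.50 and 0.50 (fitted 0.57, SE 0.09, adjusted p = 0.00178). All 3 probes passed, and each kept its sign on all arrays. No direction is therefore given for plbd2 as a gene, although it counts among the 11 falls by its brightest probe.

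**Figure D2:**
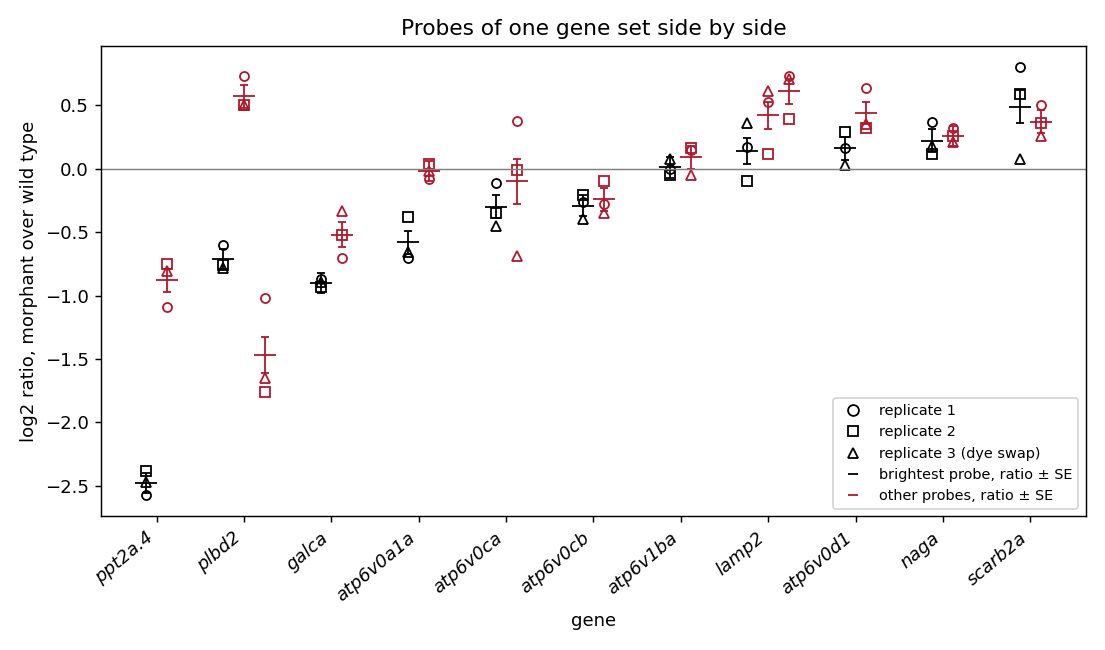
Log2 ratio of morphant over wild type (y axis) for every tested probe of the 11 members with more than 1 (x axis). Symbols are the 3 arrays, and ticks with bars are the fitted ratio and its SE. The 3 plbd2 probes run from -1.47 to 0.57 and the ppt2a.4 probes differ in size, whereas atp6v0cb, naga and scarb2a probes lie close together.

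Of 11 members with more than 1 tested probe, 3 had probes that opposed each other in sign or differed by over 0.5, namely plbd2, ppt2a.4 and atp6v0a1a. The remaining 8 differed by 0.04 (atp6v0cb, naga) to 0.47 (lamp2).

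Enzymes of sphingolipid breakdown fell in 3 of 7 tested genes and rose in 1, where 22.0% of all named genes fell and 19.3% rose. The difference from those shares was not tested. Both genes for acid ceramidase, which splits ceramide into sphingosine and a fatty acid, were about halved. For asah1a the ratios were -1.24, -1.20 and -0.97 (fitted -1.14, SE 0.09, 2.2-fold lower, adjusted p = 7.09e-05). For asah1b they were -1.36, -0.83 and -0.96 (fitted -1.05, SE 0.11, 2.07-fold lower, adjusted p = 0.000315). The ranges of these paralogs overlap. The galactosylceramidase gene galca, whose product degrades galactosylceramide of myelin, gave -0.87, -0.93 and -0.89 (fitted -0.90, SE 0.08, adjusted p = 0.000123). Its second, dimmer probe fell less (-0.70, -0.52 and -0.33, fitted -0.52, adjusted p = 0.00431).

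Against these, the lysosomal sialidase gene neu1, whose product removes sialic acid from glycoproteins and gangliosides, rose. It gave 0.83, 0.63 and 0.63 (fitted 0.70, SE 0.09, 1.62-fold higher, adjusted p = 0.000626). The other sphingolipid enzymes did not pass. The hexosaminidase subunit genes hexa and hexb, whose products act together on gangliosides, had ratios of 0.22 (0.04 to 0.53 over the arrays) and -0.21 (-0.29 to -0.13). The alpha-galactosidase gene gla had 0.14 (-0.09 to 0.28). For glb1, the beta-galactosidase gene, the 2 unmarked arrays read 0.14 and -0.03.

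Both tested genes of the glycoprotein and glycogen group did not pass by their brightest probe. The alpha-mannosidase gene man2b1 had 0.12 (adjusted p = 0.282) and naga, which encodes alpha-N-acetylgalactosaminidase, had 0.22 (adjusted p = 0.0772), with a second naga probe at 0.26 that did pass (adjusted p = 0.035). Of 5 glycosaminoglycan enzymes only sgsh, the heparan sulfamidase gene, was tested, at -0.07 (-0.23 to 0.20). The iduronate sulfatase gene ids read 0.05 and 0.29 on its 2 unmarked arrays, and the tripeptidyl peptidase gene tpp1 read -0.24 and 0.15.

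The proton pump differed little between morphants and wild type. Of all named genes 19.3% rose and 22.0% fell. In the V1 sector, 1 of 7 tested genes rose, 1 fell and 5 did not pass, with a median of 0.03. The rise was in atp6v1aa, which encodes the catalytic A subunit. It read 0.67 and 0.63 on replicates 1 and 2 but 0.14 on the dye-swapped replicate 3, where the ratio was much the smallest (fitted 0.48, SE 0.12, 1.4-fold, adjusted p = 0.0137). A second atp6v1aa probe, marked on replicate 1, read 0.52 and 0.23. The fall was in the peripheral stalk gene atp6v1e1b, at -0.36, -0.27 and -0.45 (fitted -0.36, SE 0.08, adjusted p = 0.011). The B subunit gene atp6v1ba read 0.00, -0.05 and 0.08, with no array away from 0. The C subunit genes atp6v1c1a (-0.02) and atp6v1c1b (0.03), the F subunit gene atp6v1f (0.14) and the H subunit gene atp6v1h (0.11) did not pass. The other B subunit gene, atp6v1b2, read -0.46 and -0.99 on its 2 unmarked arrays, and -0.5 with marked spots kept (adjusted p = 0.0441).

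In the V0 sector, 3 of 7 tested genes fell and 4 did not pass, with a median of -0.13, where 22.0% of all named genes fell. The a subunit gene atp6v0a1a had the largest change of the pump at -0.70, -0.38 and -0.66 (fitted -0.58, SE 0.09, 1.5-fold lower, adjusted p = 0.00223), but its second probe lay near 0 on every array (-0.08, 0.04 and -0.02). Both genes for the c subunit, the proteolipid of the rotating ring, fell by their brightest probe. For atp6v0ca the ratios were -0.11, -0.35 and -0.45 (fitted -0.30, SE 0.09, adjusted p = 0.036). Its second probe read 0.38, -0.01 and -0.69 and did not pass (fitted -0.10, adjusted p = 0.672), and with the mean of both probes the call ended (-0.20, adjusted p = 0.249). For atp6v0cb the ratios were -0.26, -0.21 and -0.40 (fitted -0.29, SE 0.08, adjusted p = 0.0287). The d subunit gene atp6v0d1 had the highest ratio of the sector, at 0.16, 0.29 and 0.03, which did not pass (adjusted p = 0.178). Its dimmer second probe did (0.64, 0.32 and 0.35, adjusted p = 0.00847). The genes atp6v0a1b (-0.12), atp6v0a2b (-0.13) and atp6v0b (0.11) did not pass, and atp6v0e1 read 0.13 and -0.46 on 2 arrays. The atp6v0ca and atp6v0cb calls ended with Agilent's own log ratio (adjusted p = 0.0765 and 0.0912), and without replicate 2 or replicate 3 the pump had 2 calls in place of 5. Without replicate 2, atp6v1aa lost its call (adjusted p = 0.0557), and without replicate 3, atp6v1e1b did (adjusted p = 0.0671).

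Of the membrane proteins only scarb2a passed by its brightest probe. The gene scarb2a, for the membrane receptor that carries the enzyme glucocerebrosidase to lysosomes in mammals, read 0.80, 0.59 and 0.08, again smallest on the dye swap (fitted 0.49, SE 0.13, 1.41-fold, adjusted p = 0.0225). Its second probe was steadier, at 0.50, 0.36 and 0.26 (adjusted p = 0.0114). The scarb2a call ended without replicate 2 (adjusted p = 0.0627), which left no called membrane protein gene. The LAMP proteins are abundant glycoproteins that line the lysosomal membrane. The lamp1a probe read -0.15, 0.01 and 0.05 (fitted -0.03, SE 0.08), so its arrays straddled 0. For lamp2 the brightest probe read 0.17, -0.10 and 0.36 (fitted 0.14, SE 0.10, adjusted p = 0.299). Its 2 dimmer probes were higher on all arrays (0.53, 0.12 and 0.61, adjusted p = 0.0191, and 0.73, 0.39 and 0.71, adjusted p = 0.00204). When its 3 probes were averaged, lamp2 passed at 0.39 (adjusted p = 0.0188).

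Prosaposin is the precursor of the saposins, which present sphingolipids to hydrolases such as acid ceramidase and galactosylceramidase. Its gene psap was the brightest member, with a mean log2 intensity of 16.2. It read 0.77, 0.47 and 0.68 (fitted 0.64, SE 0.09, 1.56-fold higher, adjusted p = 0.00125), higher on all arrays. On replicate 1, the only array where its second probe was unmarked, that probe read 0.27 against 0.77. The size of the psap rise on that array therefore depends on the probe.

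**Figure D3:**
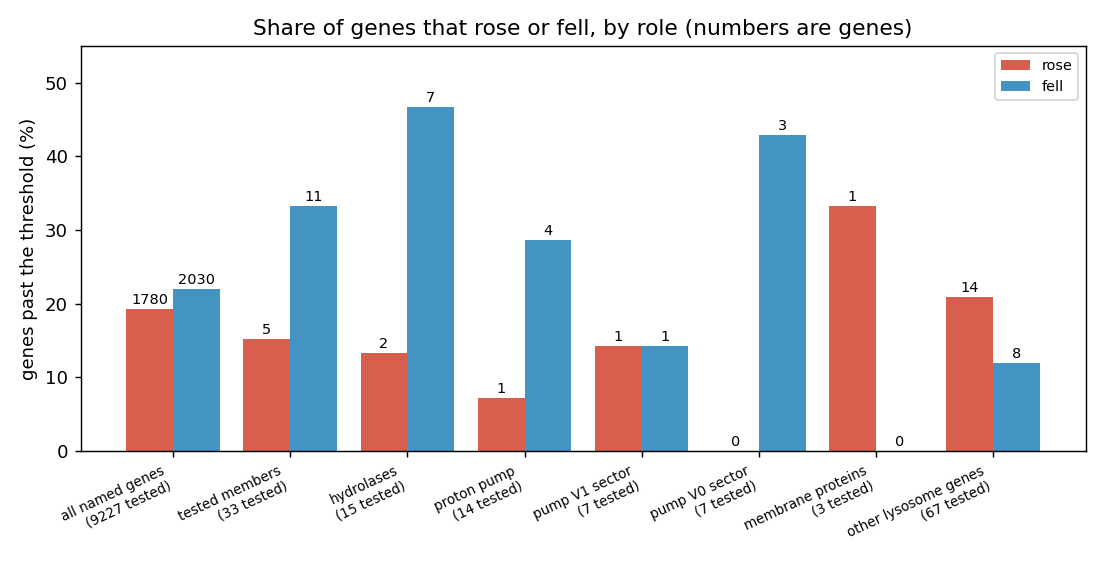
Percent of tested genes that rose or fell (y axis, adjusted p under 0.05) for all named genes and for each role (x axis), with the number of genes over each bar. Falls reach 7 of 15 hydrolases, among them ppt2a.1, which had to be lower by the filter, and plbd2, whose probes disagree in direction. The pump has 1 rise and 4 falls among 14.

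Other genes of the lysosome, its biogenesis and its nutrient sensing were read from a list of 128 further names. Of these, 77 had a probe and 67 were tested, of which 14 rose, 8 fell and 45 did not pass, so that 32.8% passed against 41.3% of all named genes. The median was 0.04. The largest rises were in aga (0.95), the aspartylglucosaminidase gene, in laptm4b (0.90) and laptm4a (0.64), which encode lysosomal transmembrane proteins, and in man2a1 (0.77), whose product works in the Golgi. The largest falls were in slc38a9 (-0.90), lamtor4 (-0.85), the RNase gene rnaset2 (-0.78) and the folliculin gene flcn (-0.68). Hydrolases on this list did not move together. For example, aga and hpse (0.39) rose, rnaset2 and scpep1 (-0.29) fell, and manba (0.23) and dpp7 (0.03) did not pass. None of the 67 had a fitted ratio of 2-fold or more. Among the 33 tested members 4 had one (ppt2a.4, asah1a, asah1b, and ppt2a.1, which had to be lower), against 385 of all 9227 named genes.

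Whole embryos mix many cell types, so fewer cells of a type and less RNA per cell cannot be told apart. Markers of lysosome-rich and pump-rich cells were therefore read beside the members. Of 12 macrophage and myeloid markers 9 were tested, while marco, lyz and ptprc had no matched probe. Of the 9, mpeg1.1 (-0.51) and mfap4.1 (-1.17) fell, csf1ra (0.68) rose and 6 did not pass. The csf1ra probe was dim, with a mean log2 intensity of 6.7 against a median of 9.6 for the tested markers of this list. In this list 33.3% were called, against 41.3% of all named genes. A second mfap4.1 probe read only -0.25, so the size of its fall depends on the probe. The summed normalized intensity of the tested macrophage and myeloid markers was 21961 to 23650 in morphants and 24158 to 28418 in wild type. Of 10 notochord markers 6 were tested, with 3 falls (tbxta, noto, shha) and 1 rise (rab32a), and the sum was 66162 to 79160 in morphants and 81137 to 91198 in wild type. Neither pair of ranges overlapped, but how often such ranges separate for other genes was not computed. All ranges of sums given here run over the arrays and leave out the pairing within each array. Their overlap or separation therefore does not measure the difference on an array. The sums weigh bright markers most. The brightest tested macrophage and myeloid marker, lcp1 (0.03), did not pass. Of the tested notochord markers the brightest, tbxta (-0.61), fell, and the next brightest, cav3 (0.15), did not pass. Of 10 ionocyte markers 5 were tested, and the list was not split by type of ionocyte. Of these, foxi3b (0.52) and trpv6 (0.75) rose, ca15a (0.19) and gcm2 (0.26) did not pass, and the sums overlapped. For ca2 the brightest probe fell (-0.33) but a second read 0.77, so no direction is given. Of 6 tested markers of the yolk syncytial layer and hepatocyte 5 passed, with apoa2 (0.42), apoa4a (0.74) and apoea (0.65) higher and apoeb (-0.93) and gata6 (-0.45) lower. In the hatching gland list he1.2 (0.62) rose, 1 of 5 tested, and among 5 tested neuron markers elavl4 (0.35) rose and isl1a (-0.34) fell. The sums of these 3 lists overlapped between the groups. The part of any cell type in the lysosomal values was not tested.

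Within slide 2 alone, 15 of the 16 called members kept their call, all but ppt2b, where 8233 of 25066 tested probes passed. On slide 1, which holds replicate 1, each of the 16 had the sign of its fitted ratio. The 16 were called from these same arrays, so neither count is an independent check. The calls rested on the intensity-dependent normalization. With each array only centred on its median, 2 of the 16 called members passed (ppt2a.4 at -2.32, and ppt2a.1, which had to be lower), where 2.87% of all named genes did (1.54% higher and 1.33% lower). Under that scaling the replicates of the 2 dye orientations pulled apart, with 23 and 24 of the 33 tested members above 0 on replicates 1 and 2 and 3 on replicate 3. The median standard deviation over arrays was 0.57 for members, against 0.12 with loess. The mean ratios moved less than the spread, with asah1a at -0.98, asah1b at -0.90, galca at -0.77 and neu1 at 0.85. For psap the centred ratios were 1.71, 1.05 and -0.03, with a mean of 0.91. With loess, 17, 15 and 18 members were above 0 on the 3 arrays. With Agilent's own dye-normalized log ratios 4 members rose and 9 fell, where 37.7% of all named genes passed (18.1% higher and 19.5% lower). There the ratio was -1.24 in place of -0.90 for galca and 0.48 in place of 0.64 for psap.

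**Figure D4:**
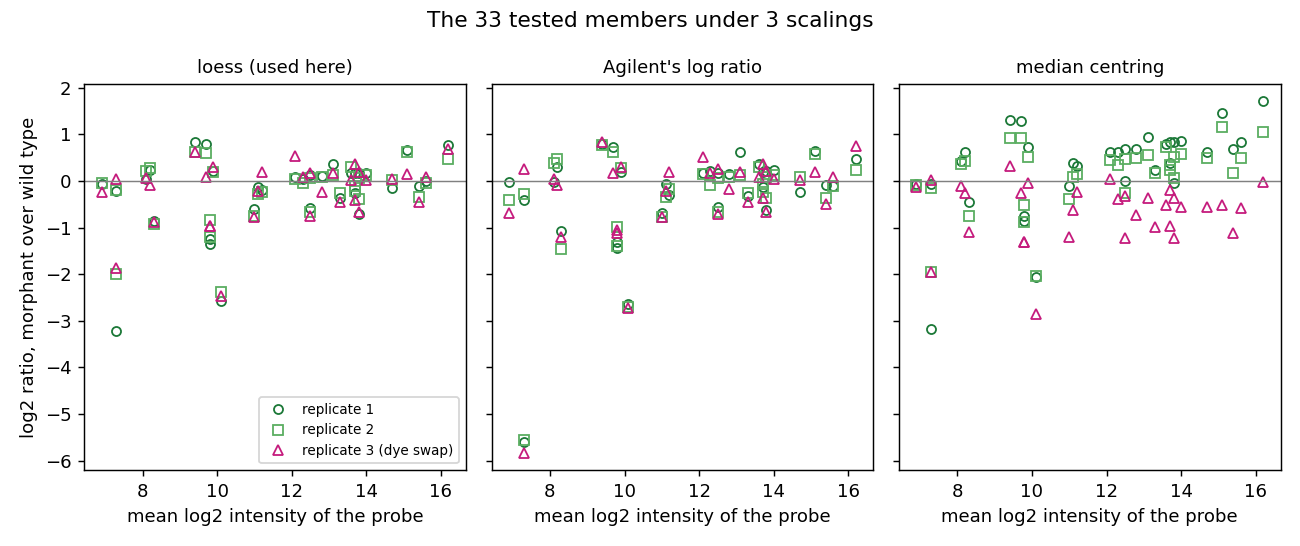
Log2 ratio of morphant over wild type (y axis) against the mean log2 intensity of the probe (x axis) for the 33 tested members under 3 scalings, with 1 symbol per array. With median centring the dye-swapped replicate 3 separates from replicates 1 and 2 for bright probes, while with loess the 3 arrays lie together.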

How the data were processed

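The authors read the arrays with Agilent's Feature Extraction software, version 8.5.1.1 per the submitters' processing notes and 10.5.1.1 per the file headers. The deposited files give, per the file headers, median spot and background intensity in Cy3 and Cy5, processed intensity, and the log10 ratio of the red to the green dye. The value table holds the same log10 ratios with replicate 3 turned. Direction rests on the dyes in the labels.

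Median intensities were background-corrected (normexp, offset 50) and loess-normalized within arrays in limma 3.58.1 under R 4.3.3. Control and marked spots had weight 0, spots of a probe were averaged, and replicate 3 was multiplied by -1. Of 43603 probes, 28688 were well above background on all 3 arrays in either channel, and the 25066 with an unmarked spot on every array were tested against 0 (lmFit and eBayes, two-sided, Benjamini-Hochberg adjustment, 2 residual degrees of freedom). Probes were named by unversioned accession through the RefSeq table of assembly GRCz12tu, which matched 16770 probes. Called members of at least 0.5 in size, the lamp and ppt genes and those at the ends of each pump sector are given array by array, and every other member by value or count. Members and lists were chosen with earlier results of these data known. The number of arrays limits the precision, and the alternatives tried are in the closing section. Slide as a random block could not be fitted with 2 slides over 3 arrays.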

Additional observations from a re-analysis of the deposited data

How the results depend on the processing

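Of 16 called members, 13 kept their call with Agilent's log ratio, 13 with a normexp offset of 0, 14 with a dye term and 2 with median centring, and in none of the alternatives run did a called member change sign. The cause of the losses was not tested. Median centring, which moved the median of all named genes to 0.13, left 0 members called higher and 2 lower, 0 pump genes, 2 hydrolases and 0 membrane proteins (limma; 265 of 9227 named genes passed there). With median centring the ratios stayed large for asah1a (-0.98) and neu1 (0.85) but shrank for atp6v0ca (-0.08). The members' median standard deviation over arrays rose to 0.57 there. Pump calls numbered 3 with Agilent's log ratio and 3 with offset 0. The mean of probes gave 8 members higher, 10 lower and 2 membrane proteins called, where 8300 of 21868 features passed (3916 higher, 4384 lower). With 1 replicate left out, 2 to 4 members were called higher and 8 to 11 lower, with 2 to 5 pump genes, 8 hydrolases each time and 0 to 1 membrane proteins, where 6187 to 8233 of 25066 probes passed. Over all tested probes 9435 passed, and 715 with median centring. The reported fit, on ratios within each array, is already the paired analysis, and a further replicate block would leave nothing to estimate. Dim probes such as ppt2a.1 give only bounds.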

Other observations

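In the RefSeq table of assembly GRCz12tu, ppt2a.1 and ppt2a.4 lie on the same chromosome with 9 genes between them, of which 2 were tested. Both fell, and both were looked at after their values were seen. The stress-response gene sesn3, whose product acts upstream of mTORC1 in mammals, gave -1.40, -1.47 and -1.62 on replicates 1, 2 and 3 (fitted -1.50, SE 0.09, adjusted p = 1.58e-05 in limma). The gene bloc1s3, for a subunit of the BLOC-1 complex that forms lysosome-related organelles, gave -0.69, -0.49 and -0.13 (fitted -0.44, SE 0.11, adjusted p = 0.0185). Among the 6 genes on either side of the pair, 7 were tested, and their ratios ran from -0.30 (mffa) to 0.22 (mgat1a). Of these, rnf183 (-0.28) and mffa (-0.30) fell. Over all named genes tested 22.0% fell, and whether genes between or beside the pair differ from that share was not tested.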
